A study of Xenopus laevis with 8 samples.

Results

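The hes5 cluster of Xenopus laevis is a group of Hes5-type genes, many of which lie beside each other as tandem copies in both subgenomes, L and S, of this allotetraploid species. The genes were taken from the authors' table of gene symbols as every entry with a name part, after splitting at each _ sign, that begins with hes5, hes3, hes8 or hes9. The rule gave 18 of 51017 gene IDs, and it used names and no measured value. By their RefSeq names, 11 are L copies and 7 are S copies. RefSeq (Xenopus_laevis_v10.1) names 22 genes by the same rule, of which hes3.S, hes5.3.S, hes5.7.S and hes5.9.S had no entry under those names and were not analysed here.

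Hes5 proteins are transcriptional repressors of the basic helix-loop-helix and Orange domain class, and many Hes genes are switched on by the intracellular part of the Notch receptor. They recruit corepressors of the Groucho family through a short motif at the C terminus and hold down proneural and other differentiation genes, which is the core of lateral inhibition between neighbouring cells. In the frog embryonic epidermis, Notch signalling limits how many cells of the inner ectodermal layer become multiciliated cells or ionocytes. In mouse, Hes5 and Hes3 are best known from neural progenitors. For the single tandem copies of the frog no role beyond that of the family is given here.

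Animal caps, the prospective ectoderm of the blastula, were cut from stage 8 embryos, healed, and cultured until they had reached stage 9, 10.5, 11.5 or 12.5, that is, from the late blastula to the late gastrula. Each stage has 2 libraries, 1 from each of the experiments that the titles mark ExpA and ExpB, written here as A and B. All 8 libraries came from explants labelled as wild type (wt) and as untreated controls, so stage is the one difference between the groups, and age and time in culture rise with it. Poly-A selected RNA was sequenced without strand information, and the values are counts per gene. The labels do not say whether A and B are separate matings or days, so p-values measure the spread between these libraries only, and they do not say how many explants went into a library.

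Library totals were lowest in stage 10.5 replicate A, at 33170889 counts, and highest in stage 9 replicate B, at 45511790 counts. Levels are given as CPM, counts scaled to a total of 1000000, on library sizes scaled by the trimmed mean of M values (TMM), and 3 counts, the limit that a count of 0 allows, corresponded to between 0.0604 and 0.0980 CPM by counting error alone. The 2 libraries of a stage differed well beyond sampling noise, with a chi-square per degree of freedom of 32.1 to 63.0. The 24 IDs of the list of ectoderm and epidermis markers summed to 2470 and 2465 CPM at stage 9 and to 20965 and 14552 CPM at stage 12.5 (A and B), with none at 0 in all libraries. The 27 IDs of mesoderm and endoderm markers summed to 156 and 182 CPM at stage 9, 112 and 252 CPM at stage 10.5, 100 and 131 CPM at stage 11.5, and 51.3 and 170 CPM at stage 12.5. The 17 IDs of neural markers stayed between 713 and 1093 CPM in all libraries, with tubb3.L at 0 throughout. Of their 16 tested copies, 9 were higher and 0 lower at stage 10.5 against stage 9 (median log2 fold change 1.71; with a replicate block 12 higher and 2 lower), 3 were higher and 2 lower at stage 12.5 against stage 10.5, and 10 were higher and 4 lower at stage 12.5 against stage 9 (median 1.95), by edgeR's test described below. In the same comparisons, in order, 25%, 7.13% and 31.9% of all genes tested were higher and 23.3%, 6.93% and 28.9% lower, by stage. The part of these other tissues in the values below was not tested. In whole explants, a change in the number of cells that express a gene and a change in RNA per cell cannot be told apart.

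By neighbour order in RefSeq, hes5.2.L and hes5.1.L lie side by side, 169 genes separate them from hes3.L, and 10 genes further on hes5.3 to hes5.10 follow each other with 0 genes between them on the L subgenome. On the S subgenome hes5.2.S and hes5.1.S are neighbours, and 109 genes, hes3.S and hes5.3.S among them, separate them from hes5.4.S. The 1 gene before hes5.8.S is hes5.7.S, and the 1 gene before hes5.10.S is hes5.9.S. In RefSeq hes5.4.S to hes5.10.S thus also follow each other without other genes between them. The entry hes5.7.L_hes9.1.S of the authors' table corresponds to the L copy in that order, although its second name part ends in S. Tandem copies and homeologs (the L and S copies of a gene) are similar in sequence, and how reads that match several copies were assigned is not given in the sources used here, so the split between copies is uncertain for every gene below. Gene lengths were not used, so no order of levels between genes is given.

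The test was edgeR's quasi-likelihood test over the whole table, and 16 of the 18 genes were among the 28490 that passed the filter on low counts. A gene was called at a Benjamini-Hochberg adjusted p under 0.05. The tests below name 2 fits, one by stage alone and one with the replicate letter as a block, because libraries of the same letter deviated from their stage means together. The 2 genes not tested had few counts. For hes5.2.S there were 0 and 17 counts at stage 9, 4 and 0 counts at stage 10.5, 0 and 4 counts at stage 11.5, and 3 and 6 counts at stage 12.5 (A and B). For hes5.8.S_hes5_X2.S there were 8 and 10, 2 and 6, 0 and 2, and 6 and 30 counts in the same order. Stage 9 replicate B stood high for hes5.2.S and stage 12.5 replicate B for hes5.8.S_hes5_X2.S, each without a matching value in replicate A.

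**Figure D1:**
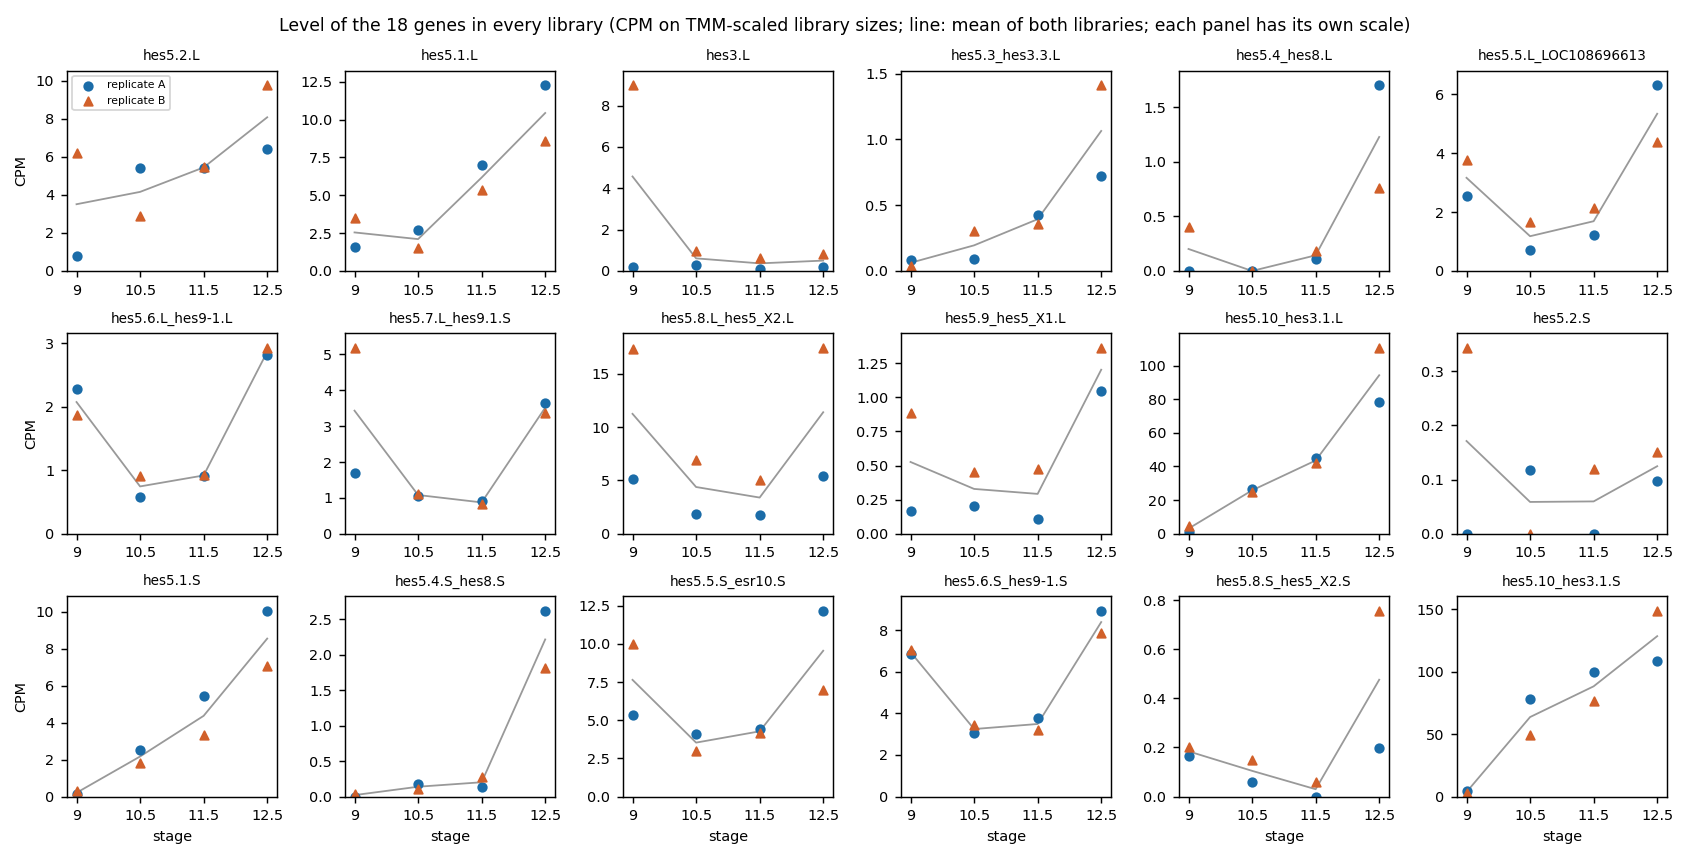
Level of each of the 18 genes (CPM, linear axis from 0, own scale in each panel) against stage, with circles for replicate A, triangles for replicate B and a line through the mean of both. The means of both hes5.10 copies, hes5.1.S, hes5.2.L, hes5.3_hes3.3.L and hes5.4.S_hes8.S are higher at each later stage. The hes5.5, hes5.6 and hes5.7 panels dip at stages 10.5 and 11.5. In the hes5.8.L_hes5_X2.L, hes3.L, hes5.9_hes5_X1.L and hes5.8.S_hes5_X2.S panels replicate B lies above replicate A at every stage.

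The data fell into a few time courses. Both hes5.10 copies and hes5.1.S rose strongly between stage 9 and stage 10.5 and were higher again at stage 12.5. The copies of hes5.6 and hes5.7.L_hes9.1.S fell over the first interval, and the hes5.6 copies rose again by stage 12.5. The hes5.4 copies were near 0 until stage 12.5. Across the 18 genes, summed CPM averaged 53.2 ± 29.2 at stage 9, 114 ± 20.7 at stage 10.5, 164 ± 18.2 at stage 11.5 and 298 ± 51.8 at stage 12.5 (SD, n = 2 each). The hes5.10 pair held 13.9% ± 4.84 of the summed counts at stage 9, 78.3% ± 5.38 at stage 10.5, 80.3% ± 2.58 at stage 11.5 and 74.5% ± 4.24 at stage 12.5 (SD, n = 2 each), a share that also depends on gene length. The other 16 genes together gave 46.5 ± 27.7, 24.0 ± 1.62, 32.1 ± 0.630 and 74.9 ± 0.603 CPM at the 4 stages in order (SD, n = 2 each).

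The S copy hes5.10_hes3.1.S had 4.33 and 2.88 CPM at stage 9, 78.4 and 49.0 CPM at stage 10.5, 100 and 76.5 CPM at stage 11.5, and 108 and 149 CPM at stage 12.5 (A and B). Every library at stage 10.5 or later lay far above both at stage 9, and stages 10.5 and 11.5 overlapped. The log2 fold change was 4.14 ± 0.34 at stage 10.5 against stage 9 (SE; edgeR adjusted p = 1.04e-04) and 5.16 ± 0.36 at stage 12.5 against stage 9 (adjusted p = 2.35e-05). At stage 12.5 against stage 10.5 it was 1.01 ± 0.30 by stage (SE; edgeR adjusted p = 0.0629), and 1.07 with the replicate block (adjusted p = 0.0151). It was also called without the filter (edgeR adjusted p = 0.00674) and by DESeq2 (adjusted p = 0.00779). It was not called with library-size scaling (edgeR adjusted p = 0.135) or DESeq2 scaling (0.0615). Nor was it called on the libraries of these 2 stages alone (edgeR adjusted p = 0.0889). The L copy hes5.10_hes3.1.L had 1.30 and 4.83 CPM at stage 9, 26.9 and 24.7 CPM at stage 10.5, 45.0 and 42.1 CPM at stage 11.5, and 78.2 and 110 CPM at stage 12.5. No 2 stages overlapped for it. Its log2 fold change was 3.07 ± 0.52 at stage 10.5 against stage 9 (SE; edgeR adjusted p = 0.00242) and 1.87 ± 0.49 at stage 12.5 against stage 10.5 (adjusted p = 0.0445). The first of these was 4.31 when stage 9 replicate B was left out and 2.42 when replicate A of that stage was left out, and it stayed called in both cases. The second lost its call in 6 of the 8 fits that left out a library, and with library-size scaling.

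The S copy of hes5.1, hes5.1.S, followed the same course at lower counts. It had 6 and 14 counts at stage 9, 86 and 72 counts at stage 10.5, 202 and 111 counts at stage 11.5, and 307 and 280 counts at stage 12.5 (A and B). Its mean level was 0.204 ± 0.111, 2.17 ± 0.505, 4.37 ± 1.49 and 8.54 ± 2.11 CPM at the 4 stages in order (SD, n = 2 each). No 2 stages overlapped. Its log2 fold change was 3.39 ± 0.52 at stage 10.5 against stage 9 (SE; edgeR adjusted p = 0.00145), 1.98 ± 0.46 at stage 12.5 against stage 10.5 (adjusted p = 0.0311) and 5.36 ± 0.55 at stage 12.5 against stage 9 (adjusted p = 1.26e-04). The L copy, hes5.1.L, had 1.57 and 3.52 CPM at stage 9, 2.70 and 1.51 CPM at stage 10.5, 6.98 and 5.37 CPM at stage 11.5, and 12.3 and 8.62 CPM at stage 12.5. Stages 9 and 10.5 overlapped for the L copy, and the later stages lay above both. Its log2 fold change at stage 10.5 against stage 9 was -0.28, with a 95% interval of -1.38 to 0.83 (edgeR adjusted p = 0.660). It then rose by 2.31 ± 0.49 on the log2 scale at stage 12.5 against stage 10.5 (SE; edgeR adjusted p = 0.0232). The third gene at this place, hes5.2.L, had 0.794 and 6.22 CPM at stage 9, 5.40 and 2.91 CPM at stage 10.5, 5.39 and 5.49 CPM at stage 11.5, and 6.40 and 9.75 CPM at stage 12.5. The spread between A and B at stage 9 spans most of that range, and hes5.2.L passed the test in no comparison with all libraries. Its log2 fold change at stage 12.5 against stage 9 was 1.20 (edgeR adjusted p = 0.227), and 3.30 without stage 9 replicate B (adjusted p = 0.00256).

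The neighbours hes5.5 to hes5.8 had their low point in the early and mid gastrula stages. For hes5.6.S_hes9-1.S the levels were 6.83 and 7.07 CPM at stage 9, 3.05 and 3.44 CPM at stage 10.5, 3.76 and 3.22 CPM at stage 11.5, and 8.92 and 7.86 CPM at stage 12.5 (A and B). Both middle stages lay below the first and the last without overlap. It fell by 1.10 ± 0.26 on the log2 scale at stage 10.5 against stage 9 (SE; edgeR adjusted p = 0.0102) and rose by 1.37 ± 0.26 at stage 12.5 against stage 10.5 (adjusted p = 0.0164). For hes5.6.L_hes9-1.L the levels were 2.28 and 1.87, 0.587 and 0.904, 0.912 and 0.925, and 2.81 and 2.92 CPM at the 4 stages in order. Here too the outer stages lay above the middle stages without overlap. It fell by 1.47 ± 0.41 on the log2 scale (SE; edgeR adjusted p = 0.0203) and then rose by 1.94 ± 0.41 (adjusted p = 0.0239) in the same 2 comparisons.

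For hes5.7.L_hes9.1.S the levels were 1.69 and 5.17 CPM at stage 9, 1.06 and 1.11 CPM at stage 10.5, 0.912 and 0.835 CPM at stage 11.5, and 3.66 and 3.38 CPM at stage 12.5 (A and B). The middle stages lay below the others, but replicate B at stage 9 was 5.17 CPM against 1.69 CPM in replicate A. It fell by 1.66 ± 0.54 on the log2 scale at stage 10.5 against stage 9 (SE; edgeR adjusted p = 0.0365). Without stage 9 replicate B the change was -0.65 (edgeR adjusted p = 0.282). The call was lost in 7 of the 8 fits that left out a library, all but the one without stage 9 replicate A, and in the fit on libraries of these 2 stages alone. For hes5.5.L_LOC108696613 the levels were 2.55 and 3.78, 0.704 and 1.66, 1.23 and 2.15, and 6.31 and 4.38 CPM at the 4 stages in order. For hes5.5.S_esr10.S they were 5.33 and 9.96, 4.08 and 2.99, 4.40 and 4.15, and 12.2 and 6.95 CPM. Both hes5.5 copies were below their stage 9 values in every stage 10.5 library. Their fall at stage 10.5 against stage 9 was not called by stage and was called with the replicate block, at -1.45 for the L copy (edgeR adjusted p = 0.0198, against 0.0583 by stage) and -1.14 for the S copy (adjusted p = 0.0337, against 0.0561 by stage), both on the log2 scale. Both falls were also called without the filter (edgeR adjusted p = 0.0406 for L and 0.0352 for S) and by DESeq2 (0.0259 and 0.0258). At stage 12.5 against stage 10.5 the L copy rose by 2.17 ± 0.54 by stage (SE; edgeR adjusted p = 0.0375). That call was lost in 6 of the 8 fits that left out a library, with library-size scaling, and on these 2 stages alone. The S copy rose by 1.43 with the block (edgeR adjusted p = 0.0281, against 0.0589 by stage). It was also called without the filter (edgeR adjusted p = 0.0250) and by DESeq2 (0.00503). It was not called with library-size scaling (edgeR adjusted p = 0.0890), DESeq2 scaling (0.0551) or these 2 stages alone (0.0723).

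The gene hes5.8.L_hes5_X2.L carried a difference between the replicate letters at each stage. It had 5.14 and 17.3 CPM at stage 9, 1.88 and 6.88 CPM at stage 10.5, 1.77 and 5.01 CPM at stage 11.5, and 5.39 and 17.4 CPM at stage 12.5 (A and B). Within each letter the middle stages were lower than the outer ones, and replicate B was the higher library every time. It was 3.26-fold higher in B than in A over all stages in the fit with the block (edgeR adjusted p = 7.05e-04), and hes3.L was the other of 2 genes among the 16 tested for which the letters differed, against 9.16% of all genes. By stage alone no comparison was called for hes5.8.L_hes5_X2.L. With the replicate block it fell by 1.38 on the log2 scale at stage 10.5 against stage 9 (edgeR adjusted p = 7.12e-04, against 0.246 by stage). With the block it rose by 1.71 at stage 12.5 against stage 11.5 (edgeR adjusted p = 0.0151, against 0.431 by stage) and by 1.42 at stage 12.5 against stage 10.5 (adjusted p = 0.00261, against 0.360 by stage). The neighbour hes5.9_hes5_X1.L had 0.167 and 0.886, 0.205 and 0.452, 0.107 and 0.477, and 1.05 and 1.36 CPM at the 4 stages. Stage 12.5 lay above all other libraries for it, and no comparison passed the test. Its log2 fold change at stage 12.5 against stage 10.5 was 1.86 (edgeR adjusted p = 0.261, and 0.0598 with the block).

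The 2 copies of hes5.4 were seen mostly at the last stage. For hes5.4.S_hes8.S there were 0 and 2 counts at stage 9, 6 and 4 counts at stage 10.5, 5 and 9 counts at stage 11.5, and 80 and 72 counts at stage 12.5 (A and B). The stage 12.5 counts correspond to 2.61 and 1.81 CPM and stand well clear of the others. The log2 fold change was 3.98 ± 0.87 at stage 12.5 against stage 10.5 (SE; edgeR adjusted p = 0.0256), and 3.45 at stage 12.5 against stage 11.5 with the replicate block (adjusted p = 0.0417, against 0.148 by stage). Against the 2 counts of stage 9, the ratio of summed counts at stage 12.5 was 105, with a 95% counting interval of 28.7 to 879. For hes5.4_hes8.L there were 0 and 20 counts at stage 9, 0 and 0 counts at stage 10.5, 4 and 6 counts at stage 11.5, and 52 and 30 counts at stage 12.5. Its 20 counts at stage 9 came from replicate B alone. Its mean level at stage 12.5, from 1.70 and 0.756 CPM in A and B, was 15.03-fold the limit of 3 counts per library at stage 10.5. This ratio leaves out the spread between A and B. The edgeR adjusted p of stage 12.5 against stage 10.5 was 0.0609 by stage and 0.0267 with the block. Both copies reached the filter's level mainly through stage 12.5, so their being tested at all is tied to a high value there.

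On the L subgenome hes3.L lies 10 genes before the unbroken run, and hes5.3_hes3.3.L is the first gene of that run. For hes5.3_hes3.3.L there were 4 and 2 counts at stage 9, 3 and 12 counts at stage 10.5, 16 and 12 counts at stage 11.5, and 22 and 56 counts at stage 12.5 (A and B). Both stage 12.5 libraries held more than any earlier one. It rose by 4.04 ± 0.89 on the log2 scale at stage 12.5 against stage 9 (SE; edgeR adjusted p = 0.00556), and by 2.44 at stage 12.5 against stage 10.5 with the block (adjusted p = 0.0490, against 0.0917 by stage). For hes3.L there were 8 and 446 counts at stage 9, 9 and 38 counts at stage 10.5, 4 and 21 counts at stage 11.5, and 6 and 32 counts at stage 12.5. One library, stage 9 replicate B, held most of the hes3.L counts of the series, and replicate B exceeded replicate A at each later stage too. The log2 fold change at stage 10.5 against stage 9 was -2.89 (edgeR adjusted p = 0.176), and 1.85 without stage 9 replicate B. The fall at stage 12.5 against stage 9 that the block called, by 2.46 on the log2 scale (edgeR adjusted p = 0.0344), rests on the same library: by stage the change was -3.16 (adjusted p = 0.131), and it was 1.54 without that library.

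The first question of the time course is what changed between the late blastula and the early gastrula. At stage 10.5 against stage 9, 3 of the 16 tested genes were higher (hes5.10_hes3.1.L, hes5.10_hes3.1.S and hes5.1.S) and 3 were lower (hes5.6.L_hes9-1.L, hes5.6.S_hes9-1.S and hes5.7.L_hes9.1.S) by edgeR's test. Of all genes tested, 48.3% were called in this comparison, 25% higher and 23.3% lower. At 6 of 16, the share of cluster genes called was near that of the whole table, so the count says nothing particular about the cluster. With the replicate block, 3 genes were higher and 6 were lower, the added ones being both hes5.5 copies and hes5.8.L_hes5_X2.L, against 58.4% of all genes called, 30.3% higher and 28.1% lower. DESeq2 called 10 cluster genes, against 45.2% of all genes with an adjusted p, and edgeR without the filter called 10, against 32.1%. By edgeR, fewer cluster genes were called without stage 10.5 replicate A than without any other library. The share of all genes called in such fits is not given here. The median log2 fold change of the 16 tested genes was -0.88, against 0.11 over all genes. All 3 rises held when any 1 library was left out, while each of the 3 falls lost its call in at least 2 such cases.

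**Figure D2:**
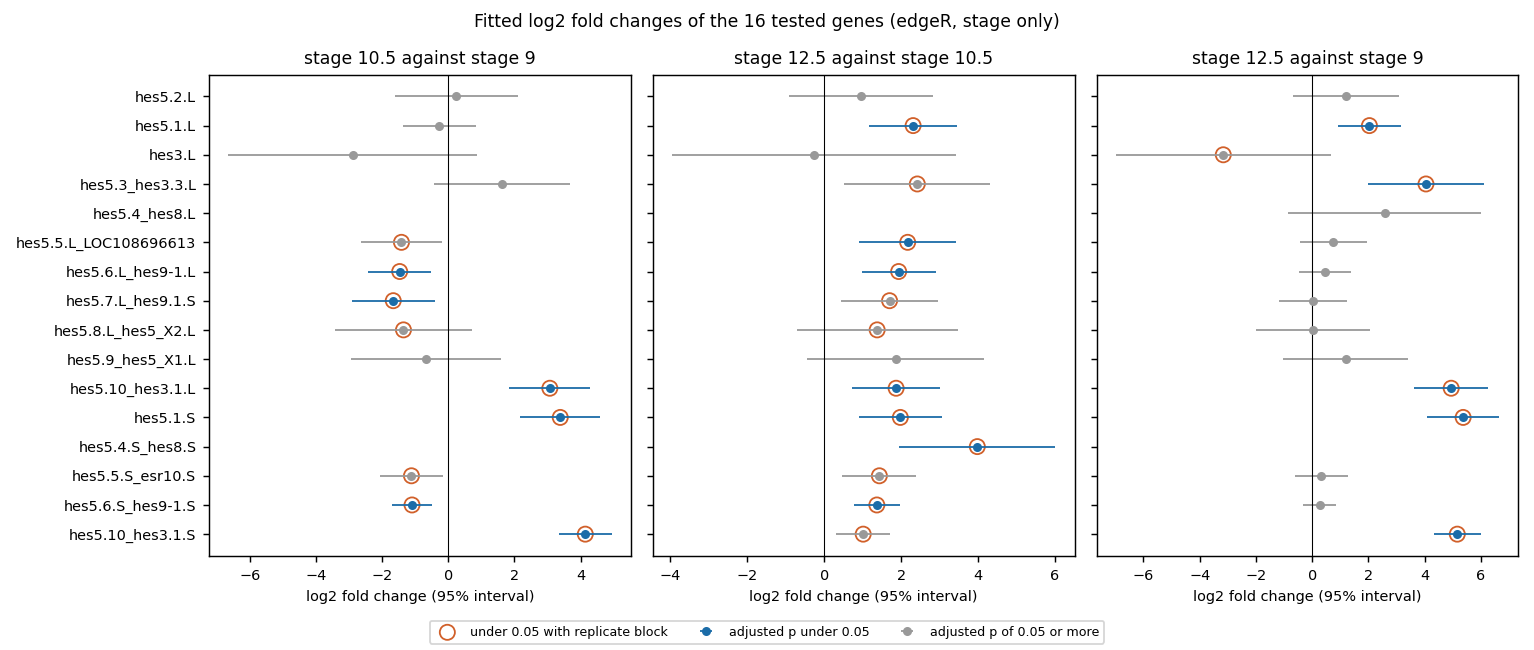
Log2 fold change from the fit by stage (edgeR, points) with its 95% interval (lines) for the 16 tested genes at stage 10.5 against stage 9, stage 12.5 against stage 10.5 and stage 12.5 against stage 9. Filled blue points had an adjusted p under 0.05, open rings one under 0.05 with the replicate block, and values against a stage with at most 3 counts in each library are not drawn; the left panel holds changes of both signs, and in the middle panel all but that of hes3.L are above 0.

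The second question is what changed during gastrulation. At stage 11.5 against stage 10.5, 0 of the 16 tested genes were called by edgeR, and 0% of all genes were. With an unadjusted p under 0.05 there was 1 gene, hes5.1.L, against 7.48% of all genes. With the replicate block 0 were called, against 0.0737% of all genes, and DESeq2 called 0, against 0.781%. At stage 12.5 against stage 11.5, 0 were called by stage, against 0% of all genes, and 6 had an unadjusted p under 0.05, against 14.9%. With the block hes5.4.S_hes8.S, hes5.6.S_hes9-1.S and hes5.8.L_hes5_X2.L were higher and 0 lower, against 4.58% of all genes called, 2.21% higher and 2.37% lower. DESeq2 called 4, against 5.85% of all genes with an adjusted p, and edgeR without the filter called 1, against 1.4%. For 15 of the 16 tested genes both stage 12.5 libraries lay above both stage 11.5 libraries, which held for 22.3% of all genes tested. These counts include the hes5.4 copies, which were tested because of their stage 12.5 values; without them the libraries lay apart in 13 of 14 genes, and 2 were called with the block. In the authors' deposited table for this interval, 4 of the 18 genes had an adjusted p under 0.05, all higher, and these were hes5.10_hes3.1.L (0.00348), hes5.7.L_hes9.1.S (0.0135), hes5.6.S_hes9-1.S (0.0302) and hes5.5.L_LOC108696613 (0.0319), while 7 had no adjusted p. Of all genes with an adjusted p there, 3.51% were under 0.05. By the authors' deposited table for stage 10.5 against stage 9, 6 had an adjusted p under 0.05, 3 of them higher, against 44.3% of all genes. For stage 11.5 against stage 10.5 the authors' deposited table gave 0, with 10 lacking an adjusted p, against 1.02% of all genes.

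Over the longer interval, at stage 12.5 against stage 10.5, 7 of the 16 tested genes were higher and 0 lower by edgeR's test. They were hes5.1.L, hes5.1.S, hes5.4.S_hes8.S, hes5.5.L_LOC108696613, hes5.6.L_hes9-1.L, hes5.6.S_hes9-1.S and hes5.10_hes3.1.L. Of all genes tested, 14.1% were called in this comparison, 7.13% higher and 6.93% lower. With the replicate block 13 were higher and 0 lower, against 26.6% of all genes called, 13.2% higher and 13.4% lower, and the 3 left uncalled were hes3.L, hes5.2.L and hes5.9_hes5_X1.L. For 14 of the 16 the libraries of both stages did not overlap, with stage 12.5 above, which held for 29.3% of all genes. Without the hes5.4 copies, tested because of their stage 12.5 values, 6 of 14 were called by stage, 11 with the block, and the libraries lay apart in 12. The median log2 fold change of the tested genes was 1.86, against -0.00016 over all genes. By stage, the calls were lost when either stage 10.5 library or stage 12.5 replicate A was left out, and most of them without stage 12.5 replicate B. Those fits had 3 residual degrees of freedom, and the called changes kept their sign in them. The share of all genes called in those fits is not given here, so the loss says nothing particular about the cluster. Scaling by library size alone moved the median of all genes to -0.30 in this comparison and left 5 genes called, without hes5.5.L_LOC108696613 and hes5.10_hes3.1.L. The share of all genes called under library-size scaling is not given here. In neither scaling did a called change turn its sign.

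From end to end, at stage 12.5 against stage 9, 6 genes were higher and 0 lower by edgeR's test, against 60.8% of all genes called, 31.9% higher and 28.9% lower. With the block the same number, 6, were higher and hes3.L was lower, against 69.1% of all genes called, 36.3% higher and 32.8% lower. By stage they were both hes5.1 copies, both hes5.10 copies, hes5.3_hes3.3.L and hes5.4.S_hes8.S, and these 6 calls held under each alternative tried. The count includes hes5.4.S_hes8.S, which was tested because of its stage 12.5 value, and is 5 of 14 without the hes5.4 copies. The L copies rose by 2.03 ± 0.48 for hes5.1.L (SE; edgeR adjusted p = 0.00786) and by 4.94 ± 0.56 for hes5.10_hes3.1.L (adjusted p = 2.14e-04), on the log2 scale. The hes5.5 copies, the hes5.6 copies, hes5.7.L_hes9.1.S and hes5.8.L_hes5_X2.L, which had been called lower at stage 10.5 in one or both fits, had stage 12.5 levels that did not pass the test against stage 9. For these 6 genes the 95% intervals of the log2 difference were -0.44 to 1.95 for hes5.5.L_LOC108696613, -0.62 to 1.26 for hes5.5.S_esr10.S, -0.32 to 0.86 for hes5.6.S_hes9-1.S, -0.46 to 1.39 for hes5.6.L_hes9-1.L, -1.18 to 1.25 for hes5.7.L_hes9.1.S and -2.02 to 2.06 for hes5.8.L_hes5_X2.L. With the block the difference of hes5.8.L_hes5_X2.L was 0.04 ± 0.21 (SE; edgeR adjusted p = 0.889). When any difference among the 4 stages was tested at once, 10 genes were called, against 52.5% of all genes, and 15 with the block, against 64.5%. The 10 include hes5.4.S_hes8.S and the 15 include both hes5.4 copies, which were tested because of their stage 12.5 values. The 15 also include hes3.L, most of whose counts came from stage 9 replicate B.

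**Figure D3:**
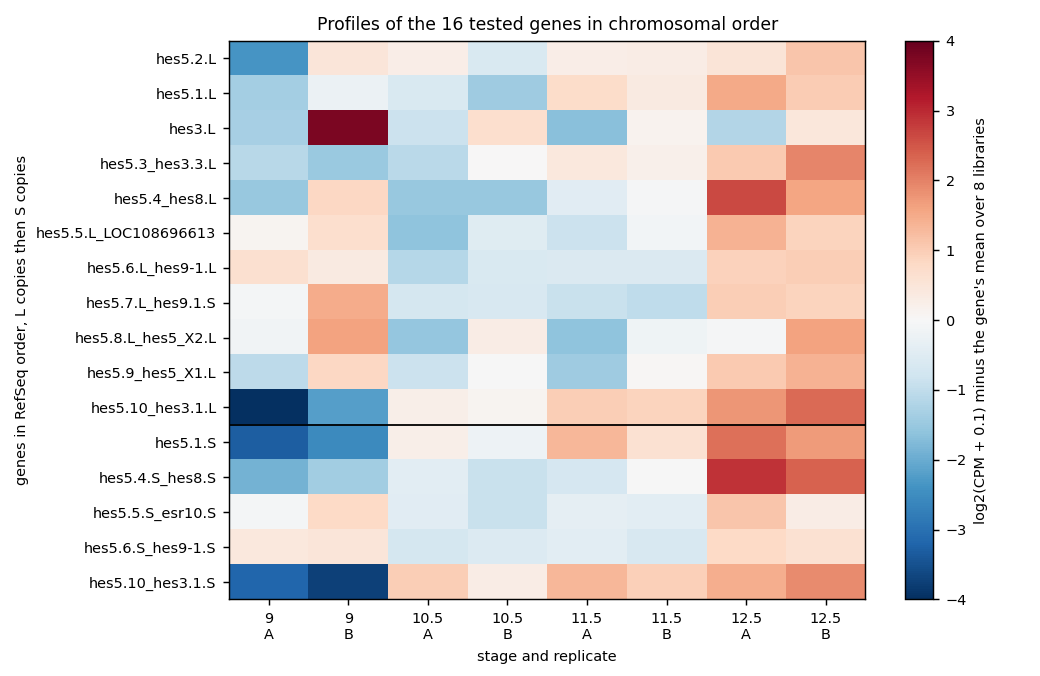
Level of each of the 16 tested genes (rows, in RefSeq neighbour order, L copies above the line and S copies below) in each library (columns), as log2(CPM + 0.1) minus the mean of that gene over the 8 libraries. Red is above and blue below the mean of the gene; the hes5.10 copies and hes5.1.S are dark blue at stage 9 and red at stage 12.5, the hes5.5, hes5.6 and hes5.7 rows are blue in the middle stages, and hes3.L is dark red in stage 9 replicate B alone.

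The likeness of the time courses was described by Pearson's r of log2 CPM over the 8 libraries, with no test, since the libraries share stages, depth and letters. Among the 6 copies of hes5.5, hes5.6, hes5.7 and hes5.8 that were tested, r lay between 0.48 and 0.97 over 15 pairs. Among both hes5.10 copies and hes5.1.S it lay between 0.94 and 0.98 over 3 pairs. Between these sets of genes it lay between -0.35 and 0.07 over 18 pairs. The 2 sets were put together after their values had been seen, so these ranges describe them and no more. Neither set has a clear border. Outside both, hes5.9_hes5_X1.L had r of 0.60 to 0.82 with the first set and 0.10 to 0.37 with the second set. For hes5.4_hes8.L these ranges were 0.49 to 0.83 and 0.25 to 0.50. For hes5.3_hes3.3.L they were 0.05 to 0.39 and 0.80 to 0.83, and for hes5.4.S_hes8.S 0.18 to 0.50 and 0.74 to 0.84. The copies hes5.5 to hes5.8 are direct neighbours on the L subgenome, whereas hes5.1.S lies apart from the hes5.10 copies in RefSeq order. The gene hes5.10_hes3.1.L lies in the same unbroken run on the L subgenome, yet its r with the first set was -0.12 to 0.07.

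Among other genes with a mean of at least 1 CPM, the closest time course to hes5.10_hes3.1.L over the 8 libraries was that of dnai2.S (r = 0.997), an axonemal dynein intermediate chain gene of motile cilia. For hes5.10_hes3.1.S it was LOC108699767 (r = 0.998), and for hes5.1.S the unnamed ID gene19959 (r = 0.999). For hes5.6.S_hes9-1.S it was galnt6 (r = 0.984), which encodes an enzyme that starts mucin-type O-glycosylation, and rassf3.L stood among the closest 3 for both hes5.6 copies (r = 0.984 for the L copy and 0.977 for the S copy). For hes5.8.L_hes5_X2.L it was ube2s.S (r = 0.967), a ubiquitin-conjugating enzyme gene, and for hes5.4.S_hes8.S it was rsrc2.S (r = 0.986). For hes3.L it was iffo1.L (r = 0.995), a match that rests on the single high library. Each of these is the highest of a very large number of values over 8 libraries, so a high r is built into the choice.

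For 7 genes both homeologs were in the authors' table, and for 5 of them both copies were tested. The ratio of the L to the S copy was compared between stages as log2 of CPM + 1 with limma, over 4815 pairs in the whole table. Since copies can differ in length, only the change of a ratio is compared. The ratio changed for 1 of the 5 pairs, hes5.1 (limma F test over the stages, adjusted p = 0.0160), against 44% of all pairs tested. The log2 ratio of hes5.1.L to hes5.1.S was 1.50 ± 0.44 at stage 9, -0.05 ± 0.17 at stage 10.5, 0.44 ± 0.18 at stage 11.5 and 0.26 ± 0.01 at stage 12.5 (SD, n = 2 each). Both stage 9 libraries lay above all others. The S copy had 0.125 and 0.282 CPM at stage 9 (A and B), under the 1 CPM added. The size of the stage 9 ratio and its spread between A and B therefore depend on that setting. At stage 10.5 against stage 9 the ratio fell by 1.55 ± 0.30 (SE; limma adjusted p = 0.00597), where 36% of all pairs were called, and at stage 12.5 against stage 9 it fell by 1.24 ± 0.30 (adjusted p = 0.0101), where 52.7% were called. With 0.5 CPM added the first of these changes was -2.10, and with 2 CPM added it was -1.04. Without stage 9 replicate B the second was -0.93 and its call was lost. That shift also carries the effect of the added CPM, since the count share of the L copy was the same in both stage 9 libraries. In counts, the L copy held 92.6% of the hes5.1 pair in each stage 9 library, 48.6% ± 4.41 at stage 10.5, 59.1% ± 3.94 at stage 11.5 and 55.0% at stage 12.5 (mean over n = 2; SD where given). Without stage 9 replicate B the F test called 0 pairs, although the change at stage 10.5 against stage 9 was still -1.24 (limma adjusted p = 0.0355).

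For the hes5.10 pair the log2 ratio of L to S was -0.31 ± 1.27 at stage 9, -1.23 ± 0.39 at stage 10.5, -0.99 ± 0.21 at stage 11.5 and -0.45 ± 0.03 at stage 12.5 (SD, n = 2 each). The L copy held 23.0% of the pair's counts in replicate A (95% exact binomial interval 18.2% to 28.5%) and 62.7% in replicate B (57.6% to 67.5%) at stage 9. From stage 10.5 on, A and B were closer, and the L share was 29.5% ± 5.65, 33.3% ± 3.18 and 42.3% ± 0.485 in order (SD, n = 2 each). The change at stage 10.5 against stage 9 was -0.92, with a 95% interval of -2.14 to 0.30 (limma adjusted p = 0.210). Without stage 9 replicate A it was -1.82 (limma adjusted p = 0.00491), so the reading depends on which stage 9 library is used. For the hes5.5 pair (limma F test, adjusted p = 0.846), the hes5.6 pair (0.971) and the hes5.4 pair (0.120) no change over the stages passed the test. At stage 10.5 against stage 9 the 95% interval of the change in log2 ratio was -0.50 to 0.68 for the hes5.6 pair. For the hes5.5 pair it was -0.99 to 0.86. The 1 CPM added shrinks ratios at levels this low, so these intervals do not bound the change of the ratio itself. In counts, the L share of the hes5.6 pair was 23.0% ± 2.87 at stage 9 and 18.5% ± 3.31 at stage 10.5. For the hes5.5 pair the shares were 29.9% ± 3.42 and 25.2% ± 14.8 (SD, n = 2 each). The ratio of hes5.4_hes8.L to hes5.4.S_hes8.S fell by 0.77 ± 0.23 at stage 12.5 against stage 9 (SE; limma adjusted p = 0.0273). At stage 9 replicate A had 0 counts of L and 0 of S, and replicate B had 20 and 2. Both are under the 1 CPM added, which largely set the stage 9 ratio, so no change of the ratio can be read from this call. The pair was also tested because of its stage 12.5 values. The change was -0.55 without stage 9 replicate B, and the call was lost there and without stage 12.5 replicate B.

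**Figure D4:**
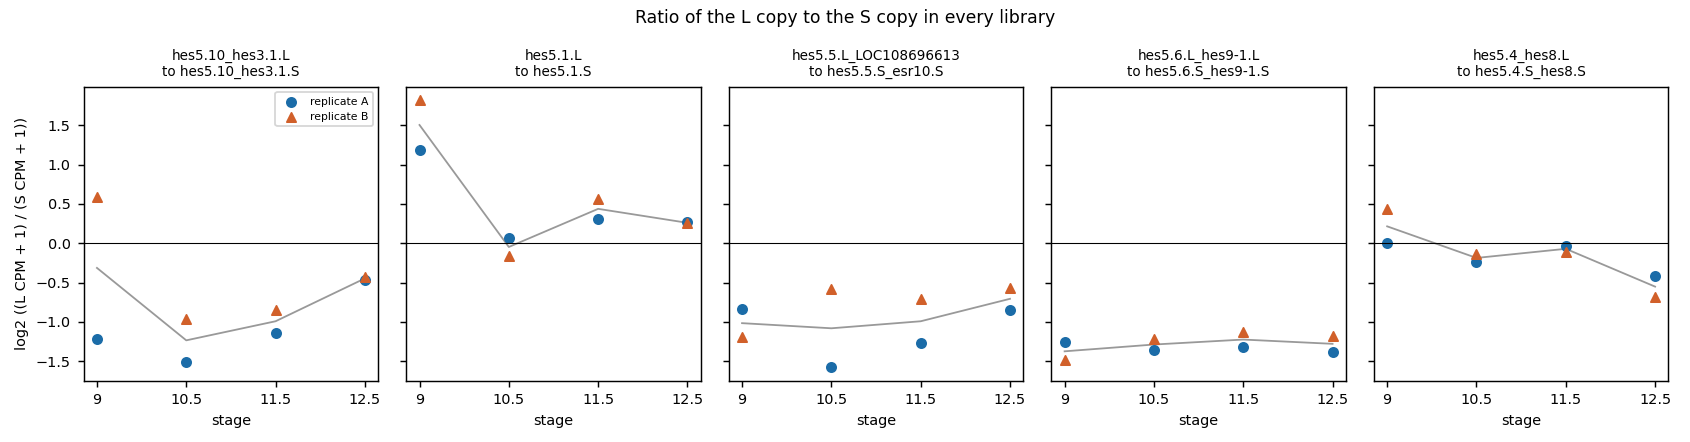
Log2 ratio of L to S copy, each as CPM + 1, in every library (circles A, triangles B, line through the mean) against stage for the 5 homeolog pairs with both copies tested. The hes5.1 panel starts at 1.50 on average and lies near 0 from stage 10.5 on, the hes5.10 panel shows A and B far apart at stage 9, and the hes5.6 panel lies between -1.5 and -1.1 throughout.

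Other genes of the pathway were described from fixed lists, by counts and medians alone. Of all genes tested, 25% were higher and 23.3% lower at stage 10.5 against stage 9 by stage (30.3% and 28.1% with the block). At stage 12.5 against stage 10.5 these shares were 7.13% and 6.93% by stage (13.2% and 13.4% with the block). The counts of each list below stand against these shares. Of the 11 tested Notch ligand copies (Dll, Jag and Dlk genes), 8 were higher and 1 was lower at stage 10.5 against stage 9, with a median log2 fold change of 2.90 against 0.11 over all genes. At stage 12.5 against stage 10.5, 3 were higher and 0 lower, with a median of 0.25 (edgeR, by stage; with the block 3 higher and 1 lower). The delta-type ligand gene dlc.L had 70.6 and 64.6 CPM at stage 12.5, against 15.8 and 22.1 CPM at stage 10.5 (A and B), and rose by 1.83 ± 0.50 on the log2 scale (SE; edgeR adjusted p = 0.0487). The jagged-type gene jag1.S had 3.11 and 3.14 CPM at stage 10.5, against 8.96 and 13.4 CPM at stage 9, and fell by 1.84 ± 0.33 (SE; edgeR adjusted p = 0.00331). Summed over the 11 copies, the ligand level was 29.1 and 31.4 CPM at stage 9, 134 and 128 CPM at stage 10.5, 173 and 195 CPM at stage 11.5, and 348 and 250 CPM at stage 12.5. The ligand sum and the hes5 cluster sum thus both stood higher in each stage than in the one before, in A and in B. From stage 10.5 on, most of the cluster sum came from the hes5.10 pair. The other cluster genes together were lower at stage 10.5 (22.9 and 25.2 CPM) than at stage 9 (26.9 and 66.1 CPM). The relation of ligands and cluster was not tested.

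Of the 41 tested copies of Notch receptors and modulators, 6 were higher and 16 lower at stage 10.5 against stage 9 (median -0.60), against 25% and 23.3% of all genes. At stage 12.5 against stage 10.5, 2 were higher and 2 lower (median 0.07), against 7.13% and 6.93% of all genes. With the block 4 were higher and 8 lower in that comparison, against 13.2% and 13.4%. The gene neurl1b.L, of the Neuralized family of ubiquitin ligases that act on Notch ligands, had 47.5 and 55.0 CPM at stage 10.5, against 2.47 and 2.19 CPM at stage 9, and rose by 4.46 ± 0.22 on the log2 scale (SE; edgeR adjusted p = 2.75e-05). The protease gene adam17.L had 3.93 and 5.98 CPM at stage 10.5, against 27.8 and 33.0 CPM at stage 9, and fell by 2.61 ± 0.30 (SE; edgeR adjusted p = 3.97e-04). Of the 14 tested copies of other Hes, Hey and Nrarp genes, 4 were higher and 1 was lower at stage 10.5 against stage 9 (median -0.29; with the block 4 higher and 4 lower), and 1 was higher and 1 lower at stage 12.5 against stage 10.5 (median -0.40; with the block 2 higher and 4 lower). In that later comparison hes7.2.S_LOC108703525, a Hes7-type gene, had 4.02 and 12.04 CPM at stage 12.5, against 1.70 and 2.24 CPM at stage 10.5, and rose by 2.03 ± 0.53 (SE; edgeR adjusted p = 0.0435).

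Of the 4 tested copies of Groucho corepressor genes, 0 were higher and 2 lower at stage 10.5 against stage 9 (median -0.72), and 0 were higher and 1 lower at stage 12.5 against stage 10.5 (median -0.30). Here and for the lists below, the shares of all genes by stage were 25% higher and 23.3% lower in the first comparison. In the second they were 7.13% higher and 6.93% lower. The copy tle4.S had 21.4 and 23.3 CPM at stage 10.5, against 174 and 197 CPM at stage 9, and fell by 3.05 ± 0.19 on the log2 scale (SE; edgeR adjusted p = 4.38e-05). The copy tle1.L had 58.9 and 53.8 CPM at stage 12.5, against 88.2 and 93.9 CPM at stage 10.5, and fell by 0.69 ± 0.13 (SE; edgeR adjusted p = 0.0175). The list of proneural genes had 10 tested copies of 16, with 2 higher and 1 lower at stage 10.5 against stage 9 (median -0.46) and 0 called at stage 12.5 against stage 10.5 (median -0.20; with the block 0 higher and 3 lower). The markers of multiciliated cells, a cell type that Notch signalling limits, had 11 of 18 tested copies higher and 0 lower at stage 12.5 against stage 10.5 (median 2.24), and their summed level was 1781 and 1056 CPM at stage 12.5, against 499 and 453 CPM at stage 10.5. Ionocyte markers summed to 591 and 381 CPM at stage 12.5, against 212 and 206 CPM at stage 10.5, with 1 of 10 tested copies higher and 0 lower. With the block 4 ionocyte copies were higher and 1 was lower, against 13.2% and 13.4% of all genes. Markers of secretory cells summed to 1229 and 1100 CPM at stage 12.5, against 468 and 396 CPM at stage 10.5, with 5 of 10 tested copies higher and 0 lower, and of the ectoderm and epidermis markers 12 of 23 were higher and 0 lower. These marker sums were higher in the same interval in which 7 of the hes5 cluster genes rose, and their part in that rise was not tested.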

How the data were processed

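Messenger RNA of 8 animal cap libraries was analysed, 2 at each of 4 stages. The authors deposited raw counts per gene for each library, whole numbers with no normalization. Per the submitters' processing notes, FastQC 0.11.5, STAR 2.6.0b-1, featureCounts 1.6.3 and DESeq2 1.22.1 were used. The genome build and annotation are not given in the sources used here. Further tables by the authors, 1 for each step between stages, hold per gene a base mean (a normalized count signal), the log2 fold change with standard error, the Wald statistic (a score), and the raw and adjusted p-value. Another deposited table pairs gene IDs with symbols, and 2668 IDs have none.

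In R 4.3.3, counts were scaled by TMM (factors 0.818 to 1.12), filtered with filterByExpr by stage and tested over 28490 genes with glmQLFit and glmQLFTest of edgeR 4.0.16, by stage, on all 8 libraries (4 residual degrees of freedom). Benjamini-Hochberg adjustment covered all genes, with a threshold of 0.05. Standard errors were derived from the F statistic. Levels are CPM, and SDs are over 2 libraries. L to S ratios were tested with limma 3.58.1 (trend) after adding 1 CPM. The code was tested on simulated counts. Deviations from stage means correlated between libraries of the same letter (r from 0.374 to 0.597 over 6 pairs of stages), so the letters pair the libraries, and a fit with the letter as a block (3 residual degrees of freedom) was run. The biological coefficient of variation was 0.362 by stage and 0.198 with the block. Other alternatives were library-size and DESeq2 scaling, no filter, the libraries of the 2 stages only, DESeq2 1.42.0, 0.5 or 2 CPM added, and leaving out each library. The cluster genes and the gene lists were chosen with earlier results of these data known. Named genes outside the cluster are those with the closest time course to a cluster gene, and those of each list with the largest change up or down. No sequences are printed.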

Additional observations from a re-analysis of the deposited data

How the results depend on the processing

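Of 19 fold changes of cluster genes called by stage, 0 changed sign under the 14 alternatives. The replicate block moved the number of genes called to 3 at stage 12.5 against stage 11.5 and to 13 at stage 12.5 against stage 10.5, changed no count of homeolog pairs, and moved no other count by over 1.5 times. Without the filter, 10 genes were called at stage 10.5 against stage 9 (32.1% of all genes) and 1 at stage 12.5 against stage 11.5 (1.4%). DESeq2 called 10 at stage 10.5 against stage 9 (45.2%) and 4 at stage 12.5 against stage 11.5 (5.85%). When a library was left out, the number called lay between 3 and 8 at stage 10.5 against stage 9, between 0 and 9 at stage 12.5 against stage 10.5, and between 0 and 2 for homeolog pairs; a stage reduced to 1 library is assumed to vary like the others. The log2 fold change of hes5.1.L at stage 10.5 against stage 9 lay between -0.77 and 0.42 in these fits, that of hes3.L between -4.09 and 1.85 at stage 10.5 against stage 9 and between -4.53 and 1.54 at stage 12.5 against stage 9, each reversing without stage 9 replicate B, and for hes5.1.L also without stage 10.5 replicate B (0.09). The cause of these shifts was not tested, other than that those fits hold fewer libraries. Of 44 uncalled values of cluster genes 15 changed sign somewhere, as did 10 of 21 uncalled ratio changes. With 2 libraries a stage and counts as low as 0, hes5.2.S and hes5.8.S_hes5_X2.S were not tested. No change of the hes5.4 copies before stage 12.5 was called by stage or with the block, which does not show that they were unchanged.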

Other observations

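In the test of replicate B against replicate A, an alternative added after the values had been seen, hes5.8.L_hes5_X2.L differed by a log2 fold change of 1.71 ± 0.15 (SE; edgeR adjusted p = 7.05e-04) and was higher in B at each of the 4 stages. The gene hes3.L was 9.35-fold higher in B (log2 3.23 ± 0.69, SE; edgeR adjusted p = 0.0253), likewise at each stage and most of all at stage 9. The immediate neighbours of hes5.8.L_hes5_X2.L, hes5.7.L_hes9.1.S (B over A 1.31-fold, edgeR adjusted p = 0.536) and hes5.9_hes5_X1.L (2.66-fold, adjusted p = 0.117), did not pass that test. Even so, hes5.9_hes5_X1.L was higher in B at each stage, as was hes5.8.S_hes5_X2.S, which had few counts and was not tested. The labels do not say what the letters stand for.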
